A study of Homo sapiens with 4 samples.

Results

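The genes described here are BCL9 and 9 other genes of the nuclear arm of the Wnt pathway, namely BCL9L, PYGO1, PYGO2, CTNNB1, TCF7, LEF1, TCF7L1, TCF7L2 and AXIN2. They were chosen by name, BCL9 because the study names it as a WDR5 target found by ChIP-seq. That BCL9 has a WDR5 peak was thus known before the choice. The peaks described are the rows of 4 peak files in which the authors paired a peak with 1 of these gene symbols. The annotation used here holds 20163 protein-coding genes in all. The study mapped WDR5 binding and H3K4me3 by ChIP-seq in RS4;11, a B-cell precursor acute lymphoblastic leukemia line, and THP-1, a monocytic acute myeloid leukemia line. Both are described by the study as MLL-rearranged, and the labels give no treatment, only culture in RPMI medium with 10% fetal bovine serum. Each antibody was used on 1 sample of each line, so there are 4 samples, with no replicates and no input sample among them. The type of leukemia was taken from what is known of the lines, because in 2 samples, WDR5 in THP-1 and H3K4me3 in RS4;11, the labels name the opposite type. With 1 culture a group, every difference between the lines below is a description with no replicate check and no test.

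In the canonical Wnt pathway, a signal at the cell surface stops the destruction of β-catenin, the protein of CTNNB1, which then enters the nucleus and binds the TCF/LEF factors encoded by TCF7, LEF1, TCF7L1 and TCF7L2. BCL9 and its relative BCL9L bridge β-catenin to PYGO1 and PYGO2, whose PHD fingers bind histone H3 methylated at lysine 4. AXIN2 is a scaffold of the β-catenin destruction complex and a widely used Wnt target gene, so it closes a feedback loop. H3K4me3 marks promoters in use, and WDR5 is a core subunit of the MLL and SET1 complexes that write this mark.

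A peak here is a region that the authors called from the reads, with a start and an end but no height, tag count or p-value. The depth behind each sample is therefore unknown, and width is the only size that can be compared. The H3K4me3 files hold 24212 distinct peaks for RS4;11 and 26523 for THP-1, with median widths of 1391 and 1241 bp. The 2 WDR5 files hold 703 and 225 peaks. A promoter peak is one with any part in the window that starts 2000 bp before the gene's annotated 5′ end and stops 500 bp after it, in GENCODE release 44 on GRCh37, the coordinates of hg19.

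Absence of a peak from these files does not show absence of the mark. Of 24 genes that nearly every cell uses, listed after the files had been seen, 10 had a promoter H3K4me3 peak in RS4;11 and 9 had one in THP-1, and 14 had none in either line, among them ACTB, GAPDH, EEF1A1 and B2M. The same 3 counts came out when every annotated start of these genes was used. Peak widths also stop short. The widest H3K4me3 peak is 4478 bp for RS4;11 and 4446 bp for THP-1, with 465 and 277 peaks between 4000 and 4499 bp and 0 of 4500 bp or more. Whether a width limit keeps peaks out of the files was not tested, and the missing peaks at the genes below are given as "not listed" for this reason.

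**Figure D1:**
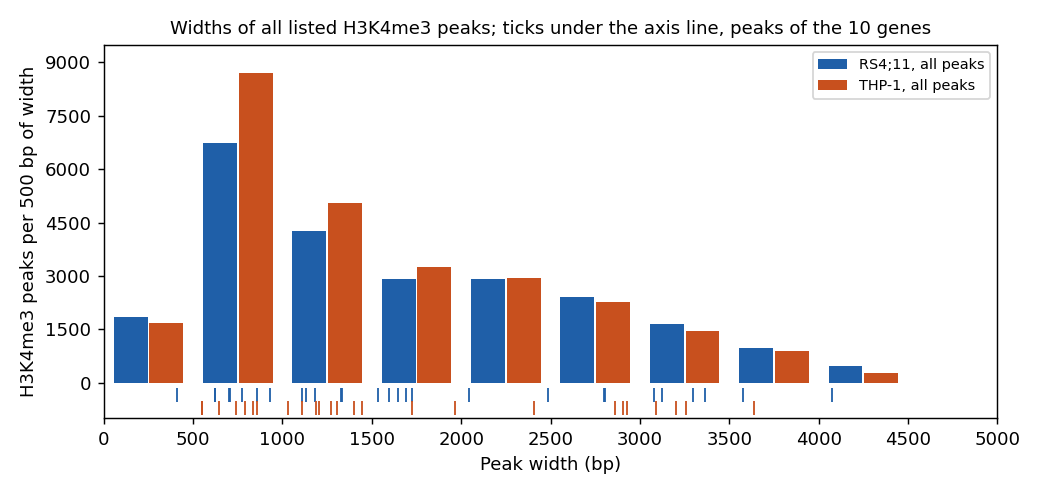
Number of H3K4me3 peaks in steps of 500 bp of width (x axis, bp) in RS4;11 (blue) and THP-1 (orange) cells, with a tick under the bars for each peak listed for the 10 genes. Both distributions end below 4500 bp, and the peaks of the 10 genes run up to 4073 bp in RS4;11 and 3637 bp in THP-1 cells.

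Markers of the labelled cell types did not all follow the labels. Of 8 B-lineage genes, RS4;11 had a promoter H3K4me3 peak at 4 and THP-1 at 4. CD79A and CD79B had one in RS4;11 only, whereas PAX5 and EBF1, transcription factors of the B lineage, had one in THP-1 only. Of 9 monocytic and myeloid genes, RS4;11 had one at 4 and THP-1 at 5, with CD14 and LYZ in both, ITGAM and CD68 in THP-1 only and SPI1 in RS4;11 only. Of 8 T-lineage genes, 3 and 1 had one. What these marker calls have to do with the values below was not tested.

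The sequences under the peaks of BCL9 are shown first, since the WDR5 result is about this gene. BCL9 lies at chr1:147013271-147098017 on the plus strand. The single WDR5 peak of the 10 genes, at chr1:147011424-147011792, is in intergenic sequence upstream of BCL9. Its middle 300 bases, plus strand of GRCh37 at chr1:147011458-147011757, are given with the TCF/LEF core motif in capitals.
BCL9 WDR5 peak: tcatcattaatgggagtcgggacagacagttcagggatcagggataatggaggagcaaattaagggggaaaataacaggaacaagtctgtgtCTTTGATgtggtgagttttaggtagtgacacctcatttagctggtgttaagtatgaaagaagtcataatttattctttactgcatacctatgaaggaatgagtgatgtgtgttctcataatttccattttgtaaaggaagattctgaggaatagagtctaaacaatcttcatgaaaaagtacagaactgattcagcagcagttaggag
The motif searched was CTTTGAT or CTTTGAA on either strand, 2 forms that do not overlap each other. It occurs once in the whole 369 bp of this peak. H3K4me3 peaks of BCL9, described below, hold it too. The RS4;11 peaks of 2801, 3076 and 1132 bp hold 1, 4 and 2, and the THP-1 peak of 2409 bp holds 3. The remaining H3K4me3 peaks of BCL9 hold 0. How often the motif falls in intergenic DNA of this composition was not tested. The next lines compare DNA upstream of the 5′ end of BCL9 with the middle of an H3K4me3 peak inside the gene, and with the upstream DNA of PYGO1 and CTNNB1, with CpG dinucleotides in capitals. The promoters are those of RefSeq (table build GRCh38.p14), placed by exact match in GRCh37 as the 250 bases before the RefSeq start, on the gene's own strand. They are the plus strand at chr1:147013021-147013270 for BCL9, the minus strand at chr15:55880544-55880793 for PYGO1 and the plus strand at chr3:41240746-41240995 for CTNNB1. The intronic stretch is the plus strand at chr1:147071664-147071913.
BCL9 upstream: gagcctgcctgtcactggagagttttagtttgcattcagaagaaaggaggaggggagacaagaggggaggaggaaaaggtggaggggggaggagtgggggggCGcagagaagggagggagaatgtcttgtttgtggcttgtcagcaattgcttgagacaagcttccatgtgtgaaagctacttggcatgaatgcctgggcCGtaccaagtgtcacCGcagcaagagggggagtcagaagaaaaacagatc
BCL9 intron: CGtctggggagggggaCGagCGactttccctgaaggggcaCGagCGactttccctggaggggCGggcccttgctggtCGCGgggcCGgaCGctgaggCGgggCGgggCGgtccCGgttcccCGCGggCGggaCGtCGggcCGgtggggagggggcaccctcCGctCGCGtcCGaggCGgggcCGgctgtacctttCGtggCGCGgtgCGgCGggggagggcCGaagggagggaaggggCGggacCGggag
PYGO1 upstream: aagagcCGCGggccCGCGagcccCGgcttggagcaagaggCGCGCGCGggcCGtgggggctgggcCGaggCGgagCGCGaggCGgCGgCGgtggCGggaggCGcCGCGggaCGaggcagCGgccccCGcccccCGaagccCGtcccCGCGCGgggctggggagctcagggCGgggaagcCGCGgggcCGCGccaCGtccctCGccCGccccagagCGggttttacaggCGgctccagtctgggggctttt
CTNNB1 upstream: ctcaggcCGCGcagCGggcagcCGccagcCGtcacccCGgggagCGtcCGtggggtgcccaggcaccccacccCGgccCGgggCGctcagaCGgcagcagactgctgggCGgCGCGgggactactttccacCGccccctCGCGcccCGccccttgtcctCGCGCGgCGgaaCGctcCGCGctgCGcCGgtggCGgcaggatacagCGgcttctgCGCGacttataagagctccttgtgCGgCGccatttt
The stretch upstream of BCL9 holds 3 CpG dinucleotides, against 34 in the stretch from its intron, 39 upstream of PYGO1 and 34 upstream of CTNNB1. A second RefSeq start of PYGO1, 24 bp from its annotated 5′ end, has 11 in its 250 upstream bases, while the start used for the printed stretch lies 602 bp inside the gene.

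RefSeq promoters of 300 bp (250 before to 50 after the start) were found for 8 of the 10 genes, 12 promoters in all, and each matched GRCh37 once. BCL9L and AXIN2 had no entry. None of the 12 holds CTTTGAT or CTTTGAA on either strand, and 6.86% of the 35116 promoters of the table do. The 12 promoters differ widely in CpG content. That of BCL9 has 53% GC and a ratio of observed to expected CpG of 0.16, lower than the table's medians of 58.7% and 0.58, and 17.2% of all promoters have a lower ratio. The promoters of PYGO2 (ratio 1.13), CTNNB1 (0.95) and TCF7L1 (0.76) lie above the median, as do both of PYGO1 (0.94 and 0.79). That of LEF1 (0.54) lies below it. TCF7 has 1 above (0.69) and 1 below (0.12). TCF7L2 has 1 above (0.98), at its 5′ end, and 2 below (0.53 and 0.28).

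Across the 10 genes, the authors' files list 28 H3K4me3 peaks at 8 genes for RS4;11 and 25 at all 10 genes for THP-1. WDR5 has 1 peak at 1 gene for RS4;11 and 0 for THP-1. PYGO1 and LEF1 are the genes not listed in RS4;11 cells. A peak is listed where it lies within a gene or up to 20 kb from it, and by the same distance an H3K4me3 peak was found for 78.4% of all protein-coding genes with RS4;11 and 83.4% with THP-1. For WDR5 these shares were 4.38% and 1.48%. A listing for 8 and 10 genes is thus near what most genes show. Of the peaks outside both the gene and its own promoter window, 3 of 8 from RS4;11 and 2 of 6 from THP-1 lay in the promoter window of another protein-coding gene, such as the peaks listed for PYGO2 at the starts of PMVK and of SHC1 with CKS1B.

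In the promoter window, 5 of the 10 genes had an H3K4me3 peak in RS4;11 cells (BCL9, BCL9L, TCF7, TCF7L1 and AXIN2), beside 49.1% of all protein-coding genes. In THP-1 cells 8 had one (BCL9L, CTNNB1, PYGO1, PYGO2, TCF7, TCF7L1, LEF1 and AXIN2), beside 55.3%. The 4 genes with a promoter peak in both lines were BCL9L, TCF7, TCF7L1 and AXIN2, and the share over all genes was 43.4%. For BCL9L this call depended on the gene model, as described below. BCL9 was the only 1 of the 10 with a promoter peak in RS4;11 cells alone, where the share is 5.71%. CTNNB1, PYGO1, PYGO2 and LEF1 had it in THP-1 cells alone, where the share is 11.9%. TCF7L2 had it in neither line, as did 39.0% of all genes. For PYGO2 the difference came from the edge of the window, as described below, and for CTNNB1 it depended on the start that is used. When the center of the peak had to lie in the window, none of these 4 genes, PYGO1 and LEF1 included, had a promoter peak in either line, and the count for THP-1 went from 8 to 3. Over all protein-coding genes the THP-1 share fell from 55.3% to 37% by the same rule.

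**Figure D2:**
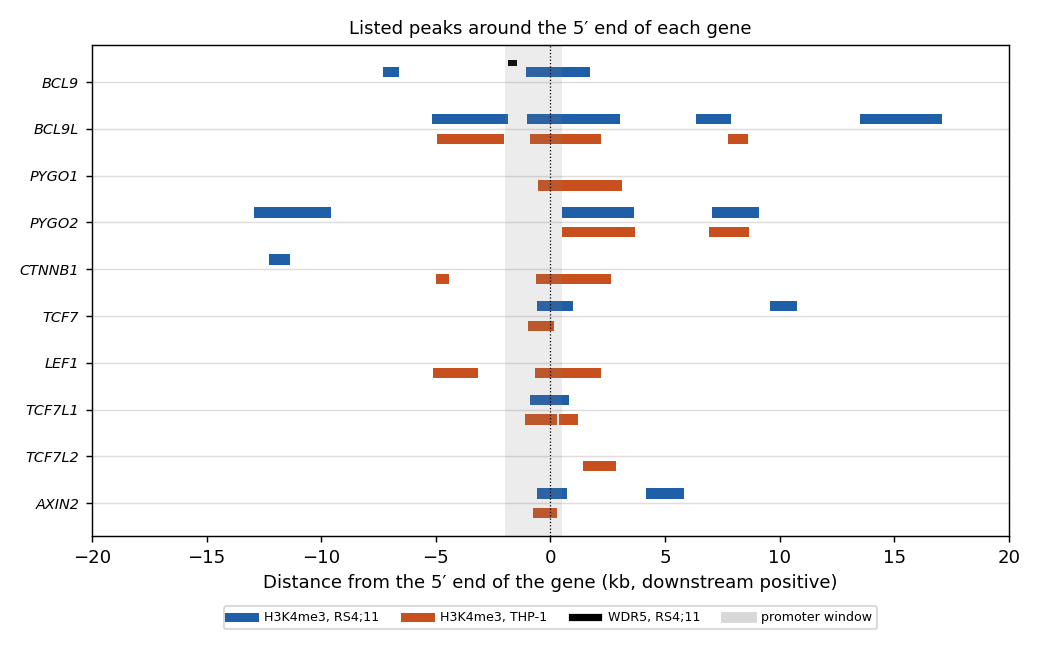
Listed peaks within 20 kb of the 5′ end of each of the 10 genes, drawn to scale as distance from that end in kb, with H3K4me3 in RS4;11 (blue, upper bar) and THP-1 (orange, lower bar), WDR5 in RS4;11 (black) and the promoter window in grey. BCL9 has blue and black bars and no orange one, PYGO1, LEF1 and CTNNB1 have orange bars over the 5′ end and no blue one there, and the bars of PYGO2 nearly coincide and begin at the window's edge.

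BCL9, the adaptor between β-catenin and the Pygopus proteins, carried different sets of peaks in the 2 lines. In RS4;11 cells an H3K4me3 peak of 2801 bp, chr1:147012204-147015004, covered the 5′ end with exon 1 and the beginning of intron 1, and 60.4% of the genes with a promoter peak in this line had a narrower one. In THP-1 cells no H3K4me3 peak was listed near this end, and the nearest lay 57314 bp downstream. By quantitative ChIP, however, the study reports H3K4me3 at the BCL9 promoter in both lines, with less of it after WDR5 knockdown. It also reports lower BCL9 expression after the knockdown in both lines. The unlisted THP-1 peak is thus not to be read as a missing mark. The WDR5 peak of RS4;11 cells was 369 bp wide, with its center at -1663 bp relative to the 5′ end, and 40.5% of all WDR5 peaks of this line were narrower. It did not overlap the H3K4me3 peak, from which 412 bp separated it. No WDR5 peak was listed for BCL9 in THP-1 cells. By quantitative ChIP, the study reports WDR5 at the BCL9 promoter in other cells, both lymphoid (Nalm6, primary B-ALL) and myeloid (U937, primary AML). The unlisted WDR5 peak is thus not to be read as binding confined to lymphoid cells. A promoter WDR5 peak was found at 45 protein-coding genes (0.223%) with RS4;11 and at 15 (0.0744%) with THP-1.

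A second H3K4me3 region of BCL9 was shared by the lines. It lies in intron 1, over the start of a shorter transcript 58717 bp downstream of the 5′ end. The RS4;11 peak there, chr1:147070309-147073384, was 3076 bp wide, and the THP-1 peak, chr1:147070585-147072993, was 2409 bp wide and lay wholly inside it. These peaks have a GC content of 59.1% and 63.6% and CpG ratios of 0.62 and 0.65, whereas the peak at the 5′ end has 48.6% and 0.29, and the WDR5 peak 36.3% and 0.09. The printed sequences show the same contrast between the CpG-poor upstream DNA and the intron. The other RS4;11 peaks of BCL9 were 706 bp (upstream), 1109 bp (intron 1) and 1132 bp (downstream) wide, and the other THP-1 peaks 792 bp (at an exon) and 552 bp (downstream), with no overlap between the lines. In all, H3K4me3 peaks listed for BCL9 covered 8824 bp in RS4;11 and 3753 bp in THP-1 cells.

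**Figure D3:**
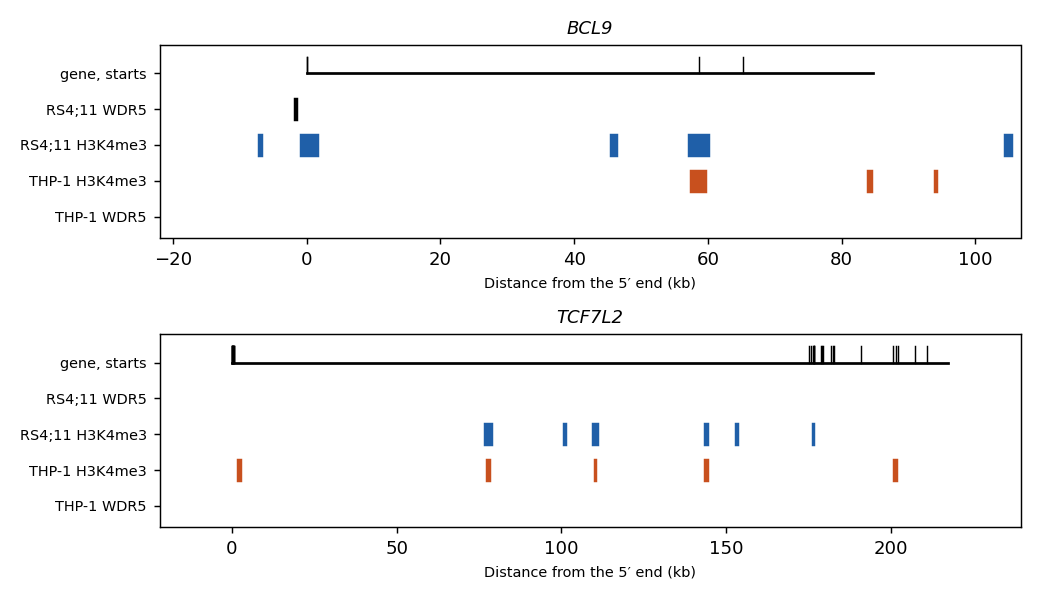
Peaks of the 4 samples along BCL9 (upper panel) and TCF7L2 (lower panel), as distance from the 5′ end in kb, with annotated transcript starts as upright ticks on the gene line. At BCL9 the blue and orange bars meet only at the start inside intron 1, and at TCF7L2 they meet at 3 positions inside introns.

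Few genes had the same presence and absence over the 4 files as BCL9, with WDR5 and H3K4me3 in the promoter window of RS4;11 cells and neither in THP-1 cells. There were 3 others: CD93, a surface glycoprotein of myeloid and endothelial cells, with an RS4;11 H3K4me3 peak of 2703 bp, GPR82, an orphan receptor, with 1631 bp, and S100B, a calcium-binding protein, with 531 bp. At all 3 the WDR5 peak overlapped the H3K4me3 peak, which it did not at BCL9. CD93, like BCL9, is a WDR5 target that the study names. By quantitative ChIP the study reports WDR5 and H3K4me3 at the CD93 promoter in Nalm6, U937, primary B-ALL and primary AML cells. The limit on unlisted peaks applies to its THP-1 calls too. Over all genes, 31 had both kinds of peak in the promoter window in RS4;11 cells. Of these, 27 also had promoter H3K4me3 in THP-1 cells and 4, BCL9 included, did not. Among all 9902 genes with a promoter H3K4me3 peak in RS4;11 cells, 1152 had none in THP-1 cells, and 4 of 31 is near that share. The WDR5 peak overlapped an H3K4me3 peak at 28 of the 31. Both peaks had to touch the same window, and the median promoter H3K4me3 peak of RS4;11 cells is 2578 bp wide. Overlap is therefore largely set by how the 31 were chosen.

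BCL9L, the relative of BCL9 (chr11:118764584-118796635, minus strand), had the widest promoter peak of the 10 genes in RS4;11 cells. It was 4073 bp wide there, more than at 96.2% of the genes with a promoter peak, and 3090 bp wide in THP-1 cells, more than at 77.9%. For all 10 genes, such ranks are among genes with a listed promoter peak only, and listed peaks end below 4500 bp. What unlisted wider peaks would do to the ranks was not tested. Both peaks covered the 5′ end, and also the start of UPK2 on the other strand, so that the mark cannot be given to 1 of the genes. A companion peak upstream was 3299 bp wide in RS4;11 and 2925 bp wide in THP-1 cells. In RS4;11 cells a further peak of 3578 bp lay over the starts of 2 shorter transcripts within the gene, where no THP-1 peak was listed. The authors' flags for BCL9L give upstream, exon and intron for this peak, and upstream only for its other peaks in both lines. By the gene model behind these flags, the start of BCL9L had a listed peak in RS4;11 cells alone.

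The Pygopus genes, whose products read the methylated histone, differed from each other. PYGO1 (chr15:55831082-55881145, minus strand) had 1 peak in THP-1 cells, 3637 bp wide and over all 3 of its annotated starts, wider than at 91.3% of genes. No RS4;11 peak was listed for it, and the nearest of that line lay 89739 bp from its 5′ end. PYGO2 (chr1:154929502-154936329, minus strand) had nearly the same peak in both lines, 3125 bp in RS4;11 and 3203 bp in THP-1 cells, with 3125 bp in common. These peaks cover the canonical start, 2071 bp downstream of the annotated 5′ end. Their nearer edges lie 508 and 499 bp from that end, on either side of the window's limit of 500 bp, so the call for THP-1 cells alone at PYGO2 rests on where the window ends.

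CTNNB1, the gene of β-catenin (chr3:41236232-41301587, plus strand), had a THP-1 peak of 3257 bp at chr3:41235616-41238872, over the 5′ end and 7 of its annotated transcript starts. In RS4;11 cells the single peak listed was 930 bp wide and 11358 bp upstream of that end. The canonical start of CTNNB1 lies 4764 bp further downstream, in the CpG-dense DNA printed above, and had no peak in either line. The nearest peaks to the RefSeq promoter there were 2124 bp away in THP-1 and 16122 bp away in RS4;11 cells. Other THP-1 peaks of CTNNB1 were 549 and 740 bp wide. β-catenin is expressed in most cell types, and the limit stated for the 24 widely used genes applies to it.

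The 4 TCF/LEF genes, which encode the DNA-binding partners of β-catenin, did not share 1 pattern. TCF7 (chr5:133450372-133487556, plus strand), the factor first known from T cells, had a narrow promoter peak in both lines, 1598 bp in RS4;11 and 1108 bp in THP-1 cells, with 13.7% and 9.9% of genes narrower. The RS4;11 peak reached further into the gene and covered 13 of its transcript starts, against 2 for the THP-1 peak. TCF7L1 (chr2:85360515-85537510, plus strand), mostly known as a repressor, had a single RS4;11 peak of 1726 bp, and THP-1 peaks of 1400 and 836 bp with a gap between them over the same stretch. It also had a peak at exon 11 in both lines, 776 bp wide in RS4;11 and 1303 bp in THP-1 cells.

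LEF1 (chr4:108968701-109090112, minus strand), a factor of early B and T cells, had a THP-1 peak of 2859 bp over its 5′ end and 7 transcript starts, wider than at 70.6% of genes, and another of 1966 bp upstream. Both also reach starts of the antisense gene LEF1-AS1, and ChIP carries no strand. No RS4;11 peak was listed for LEF1, the nearest being 170697 bp from its 5′ end.

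TCF7L2 (chr10:114710006-114927437, plus strand), the TCF best known from the intestine, had no peak in the promoter window of either line, although its RefSeq promoter at the 5′ end is CpG-rich. The nearest peak to the 5′ end was 1428 bp downstream in THP-1 and 76433 bp downstream in RS4;11 cells. Inside the gene, 3 peaks in introns 4 and 5 were shared by the lines. Their widths were 2485, 1693 and 1332 bp for RS4;11 and 1206, 645 and 1272 bp for THP-1. At the alternative starts toward the 3′ end of the gene the lines differed, with an RS4;11 peak of 624 bp from 176060 bp downstream of the 5′ end and a THP-1 peak of 1186 bp from 200857 bp.

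AXIN2 (chr17:63524681-63557766, minus strand), the feedback gene, had the narrowest of the genes' widest promoter peaks in both lines. They were 1328 bp in RS4;11 and 1029 bp in THP-1 cells, with 9.23% and 8.32% of genes narrower, and overlapped by 868 bp. A second RS4;11 peak of 1647 bp lay in an intron and had no listed counterpart in THP-1 cells.

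Some genes had narrow or wide promoter peaks in both lines. TCF7, TCF7L1 and AXIN2 lay below the lower quartile of all genes with a promoter peak (2000 bp in RS4;11, 1709 bp in THP-1 cells) in both lines, and BCL9L lay above the upper quartile (3187 and 2996 bp) in both. The median over the 5 RS4;11 genes was 1726 bp, beside 2578 bp over all genes, and over the 8 THP-1 genes 2974.5 bp, beside 2356 bp. These medians are over different genes. Where a peak of 1 line overlapped a peak of the other, over 15 pairs at 7 of the genes, the RS4;11 peak was wider in 12 and the THP-1 peak in 3. Over all 13781 such pairs the RS4;11 peak was wider in 54.2%. Of the peaks of the 10 genes, 14 of 28 (50%) in RS4;11 and 15 of 25 (60%) in THP-1 overlapped a peak of the other line, beside 55.8% and 51.8% of all peaks.

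**Figure D4:**
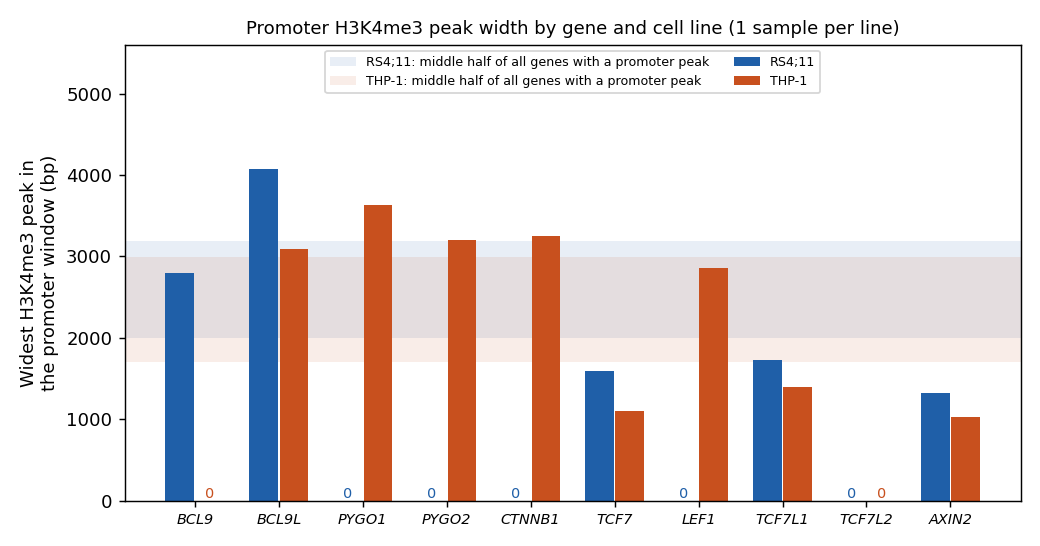
Width in bp of the widest H3K4me3 peak in the promoter window of each of the 10 genes in RS4;11 (blue) and THP-1 (orange) cells, 1 sample per line, with 0 where no peak is listed. Shaded bands span the lower to upper quartile of all genes with a promoter peak, and TCF7, TCF7L1 and AXIN2 sit below them in both lines. A second THP-1 promoter peak of TCF7L1, narrower than the one shown, is not drawn.

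The rest of the Wnt pathway was described by 99 other genes in 5 groups. Of these, RS4;11 had a promoter H3K4me3 peak at 57 (57.6%) and THP-1 at 65 (65.7%), with 48 in both, 9 in RS4;11 only, 17 in THP-1 only and 25 in neither. The shares of all genes given above, 49.1% and 55.3%, are lower. Receptors had one at 12 and 13 of 15 genes, and the relay and destruction complex at 14 and 15 of 18. The nuclear cofactors and repressors had one at 14 and 13 of 21, the feedback genes and secreted inhibitors at 12 and 16 of 26, and the ligands at 5 and 8 of 19. Ligands were the group with the lowest share in both lines.

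**Figure D5:**
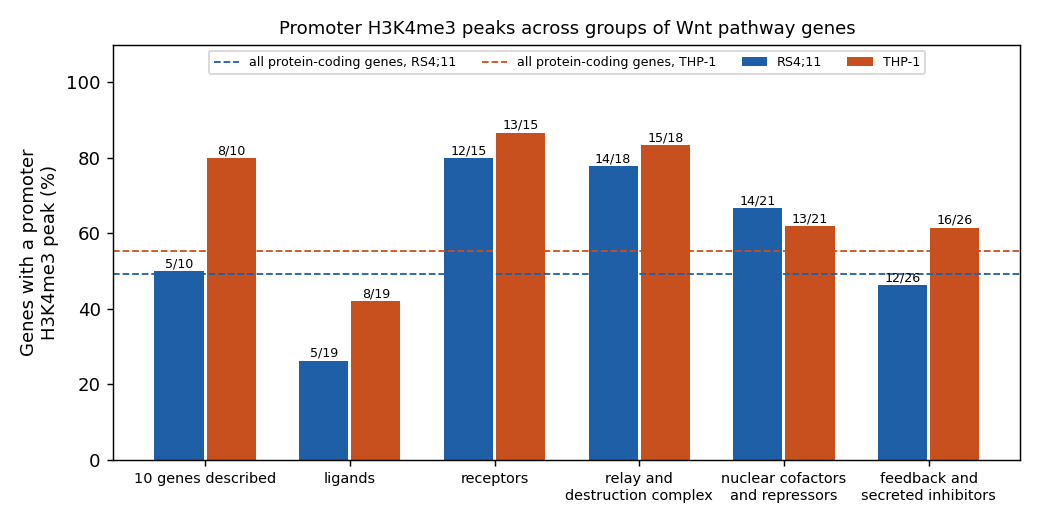
Percent of genes with a promoter H3K4me3 peak in RS4;11 (blue) and THP-1 (orange) cells, for the 10 genes and 5 groups of other Wnt pathway genes, with the counts above the bars and the share of all protein-coding genes as dashed lines. Receptors, the relay and destruction complex, and the nuclear cofactors and repressors stand above both dashed lines, and ligands below both.

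Of the genes with a promoter peak in 1 line only, 9 in RS4;11 and 17 in THP-1, the first 12 in alphabetical order are named. In RS4;11 cells these were CREBBP, a histone acetyltransferase that binds β-catenin (4133 bp), LGR6 (4047 bp) and LGR4 (2553 bp), receptors for R-spondins, CSNK1E, a casein kinase of the signal relay (3954 bp), FZD8, a Frizzled receptor (3843 bp), and RNF43, a ligase that removes Frizzled receptors (489 bp). In THP-1 cells these were CCND1, the cell cycle regulator cyclin D1 (3480 bp), SFRP1, a secreted inhibitor (2331 bp), RSPO2 (2207 bp) and RSPO1 (1404 bp), ligands that strengthen Wnt signals, ROR1, a receptor for Wnt proteins (1228 bp), and FZD9, another Frizzled receptor (902 bp).

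WDR5 peaks were listed for 7 of the 99 genes. In RS4;11 cells these were WNT2, GSK3B, HDAC1, DKK3 and SFRP5, and in THP-1 cells WNT7A, BTRC and DKK3. These are 5 and 3 of the 99 genes, beside the 4.38% and 1.48% of all protein-coding genes given above. The peak nearest to a 5′ end was that of HDAC1, a histone deacetylase, with its center at -5635 bp. BCL9 was thus the single gene of the pathway described here with WDR5 in its promoter window. BCL9 was chosen as a WDR5 target that the study names from the same data. Its WDR5 peak was therefore given by the choice and is no finding about the pathway. The DKK3 peaks of the lines were at different places, 27611 and 17024.5 bp downstream of the 5′ end. Only the THP-1 peak of BTRC, which encodes the subunit that marks β-catenin for destruction, overlapped an H3K4me3 peak of its own line. At the others the distance to the nearest such peak ran from 2976 bp at SFRP5 to 110037 bp at GSK3B, and at BCL9 it was 412 bp.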

How the data were processed

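ChIP-seq of WDR5 and H3K4me3 was analysed in 1 sample each of RS4;11 and THP-1 cells. Per the methods of the study, chromatin was sonicated for WDR5 and cut with micrococcal nuclease for H3K4me3, whereas the labels give sonication for all samples. Reads were aligned by the authors to hg19 with Eland (up to 2 mismatches, unique alignments), and MACS peaks, called with its defaults, were joined to genes. CASAVA 1.7 and 1.8.2 appear in the submitters' processing notes. The MACS version and any input control are not given in the sources used here. Unique alignment lowers signal in repeated sequence.

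The values deposited by the authors are peak positions, with 1 row for each transcript near a peak and flags for 20 kb upstream or downstream, exon and intron. They hold no other measure, so the depth is unknown and no interval can be given. The stricter peak threshold was replaced by minimum widths.

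Rows were reduced to distinct peaks. Gene models were those of GENCODE 44 on GRCh37, and promoters from RefSeq (GRCh38.p14). Overlap meant at least 1 shared bp. With 1 sample per group, no test was run. The 10 genes, the gene lists and the marker lists were chosen with earlier results of these data known. Beside the 10 genes, the text names the Wnt genes with a WDR5 peak, the first 12 in alphabetical order with promoter H3K4me3 in 1 line only, and up to 5 genes that share the BCL9 pattern and are nearest to it in width. Alternatives changed the window, the start site, the peak rule and the minimum width. 1 marker gene of the design is not reported here. The scripts were tested on simulated peaks. Python 3.11.15, numpy 2.4.6 and matplotlib 3.10.9 were used.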

Additional observations from a re-analysis of the deposited data

How the results depend on the processing

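Counts were judged to have moved when they changed by more than 1.5 times. Of 64 recomputed values of 18 results, 58 did not move, and 6 did. When the center of the peak had to lie in the window, 3 of the 10 genes had a promoter H3K4me3 peak in THP-1 cells in place of 8, 0 had it in THP-1 cells only in place of 4, and 35 and 41 of the other Wnt genes had it in RS4;11 and THP-1 cells in place of 57 and 65. The wide peaks that begin at a 5′ end have their center inside the gene. With the start of every annotated transcript, 0 genes had it in RS4;11 cells only in place of 1, because the shared intronic peak of BCL9 then counts. With the canonical start, an alternative chosen after seeing the data, 2 genes (PYGO1 and LEF1) had it in THP-1 cells only in place of 4. BCL9L, TCF7, TCF7L1 and AXIN2 kept a promoter peak in both lines under every alternative for the window, start or width except the peak center, which BCL9L did not pass. These starts were all from GENCODE, and the authors' own flags place the start of BCL9L elsewhere, as described above. Minimum widths of 500 and 1000 bp moved no promoter count of these genes, and listed peaks were recounted at 500 bp only. No paired analysis was possible because each group has 1 sample, and no replicate could be left out. With no tags or heights in the files, a peak that was not listed sets no upper limit on the mark.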
